A study of Sus scrofa with 8 samples.

Results

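The genes described here encode the cytosolic ribosomal proteins, measured in left ventricular muscle of pigs that had survived a myocardial infarction and then received glial growth factor 2 (GGF2) or nothing. They were chosen by name: a probe set entered if the platform annotation gave it 1 gene symbol that began with RPL, RPS or RPLP followed by a digit, or was RPSA, and the S6 kinase genes (RPS6K) were left out. Where a gene had several probe sets, the brightest by the mean of all 8 arrays was used. This gave 64 genes, taken from 96 of the 23999 probe sets tested, on an array that names 6765 genes through single-symbol probe sets. The genes comprised 38 of the large subunit and 25 of the small subunit. RPS19BP1 met the letters of the rule but encodes a protein that binds RPS19, not a ribosomal protein. The current pig gene table from RefSeq (Sscrofa11.1) holds 84 symbols that meet the rule, so 20 were not analysed here, among them the muscle paralog RPL3L.

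The cytosolic ribosome consists of a small subunit, which reads the messenger RNA, and a large subunit, which joins amino acids into protein. Each ribosomal protein is needed in about equal number, and its mRNA is among the most abundant in most cells. In many mammalian cells these mRNAs are controlled mainly at translation, through a pyrimidine-rich start and the mTOR pathway, while growth of heart muscle is accompanied by increased ribosome production.

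GGF2 is a soluble form of neuregulin-1 that signals through ErbB receptors. Of the 8 animals, 3 were untreated, 3 received the low dose of 0.67 mg/kg at each infusion and 2 received the high dose of 2.0 mg/kg, in both cases over 4 weeks. All were male castrated Yorkshire swine under 1 year of age, with a mean weight of 54.5 kg, all had had an infarct, and all tissue was taken from left ventricle remote from it. Each array carried RNA of a different pig. The labels give no vehicle for the untreated animals, so infusion itself and GGF2 cannot be told apart.

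The deposited values are log2 expression on the RMA scale, so a difference of 1 is a doubling of the measured intensity. They spanned 2.13 to 15.01. A probe set with a mean under 3.774, the median of the lower quartiles of the 8 arrays, was called close to background. Arrays carry no read depth, and the number of animals limits the precision. Heart muscle transcripts were bright in this tissue: 13 of 16 listed cardiomyocyte markers were measured, with means between 10.39 and 14.87, while the 3 measured neutrophil markers of 4 listed were close to background.

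Most ribosomal protein mRNAs were bright and held a narrow level across animals. Of the 64 genes, 50 had a mean of at least 12 over the 8 arrays, and the highest mean was 13.96, for RPS20 of the small subunit. At such brightness an array responds less than in proportion to RNA, so a difference measured there can be smaller than the difference in RNA. The SD over all 8 arrays had a median of 0.102 log2 units among these 50 genes, against 0.126 among the 288 other probe sets with a mean over 12 and 0.182 among all probe sets. Of the 64 genes, 59 had an SD below the median of all probe sets. The smallest SDs were 0.0353 for RPS20, 0.0534 for RPS24 and 0.0570 for RPL27A, and the widest were 0.307 for RPL3, 0.280 for RPL30 and 0.279 for RPL37. For 3 genes, RPL26, RPL30 and RPS15A, the only or brightest probe set had a mean of 3.71, 3.75 and 3.67, so these probe sets lay close to background and their changes have no exact size. The other 61 were above it.

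**Figure D1:**
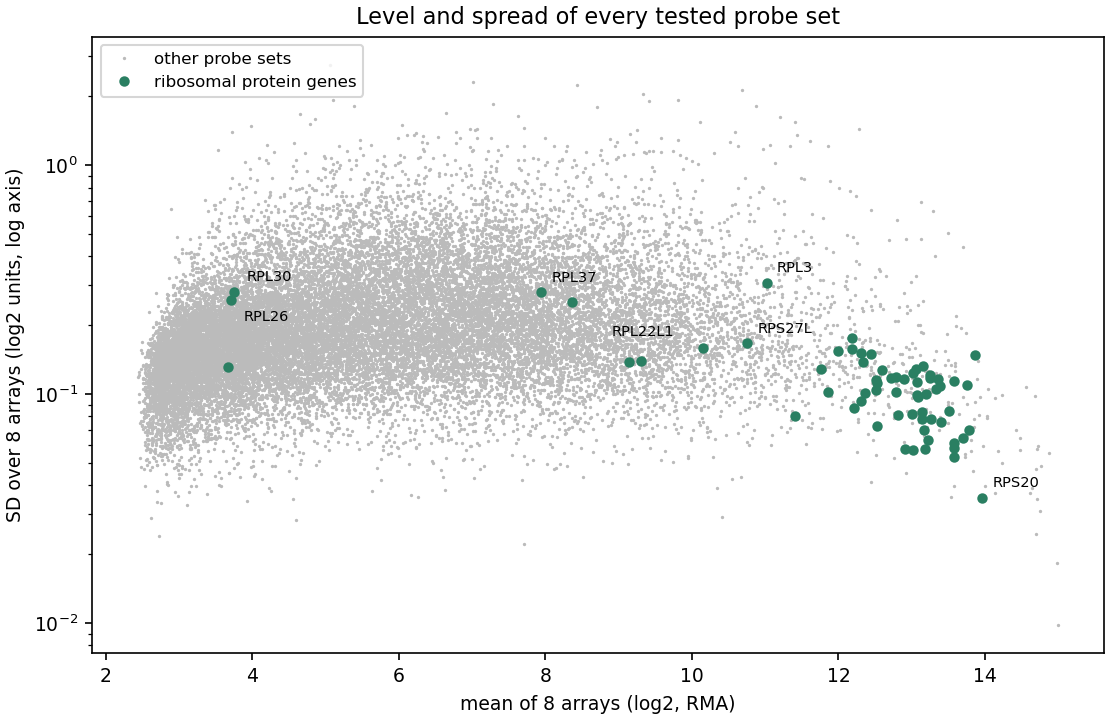
Each point is a probe set, with its mean of 8 arrays on the x axis (log2, RMA) and its SD over the 8 arrays on the y axis (log2 units, log axis); ribosomal protein genes are coloured and other probe sets grey. Most ribosomal protein genes sit at the bright end with small SDs, RPS20 lowest at 0.0353, while RPL3 has the widest SD at 0.307.

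Several ribosomal protein genes are customary reference genes for quantitative PCR, and their values bear on that use in this tissue. RPL13A had the smallest SD of 5 such genes, 0.0628 over the 8 arrays, followed by RPL32 at 0.0777, RPL4 at 0.104, RPLP0 at 0.114 and RPS18 at 0.148. Against untreated animals, RPL13A differed by −0.01 at the high dose and 0.01 at the low dose, and RPL4 by −0.03 and −0.07. These are the brightest probe sets, where a measured difference can be smaller than the difference in RNA, so small SDs there do not settle that use. Dimmer probe sets had SDs of 0.273 and 0.166 for RPL13A, 0.179 for RPL32 and 0.254 for RPLP0. Those of RPS18 had 0.168 and 0.132. RPS18, a protein in the head of the small subunit, was at 13.64 and 13.70 on the 2 high-dose arrays, against 13.85, 13.91 and 13.98 on the untreated arrays. The groups did not overlap and the difference was −0.25, with a limma adjusted p of 0.672, so it did not pass.

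No ribosomal protein gene passed an adjusted p under 0.05 in limma in any of 4 comparisons. These set each dose against the untreated animals, the high dose against the low one, and the average of the 2 dose groups against the untreated animals. Over all tested probe sets 0% passed in the comparisons with untreated animals, and 0.025% passed between the doses. The calls of the whole array were therefore few, and the counts that follow use unadjusted p or separation of the groups, each with its share among all probe sets. At 2 or 3 animals a group, any 2 groups separate often: at the high dose 26.6% of all probe sets did not overlap with untreated.

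The intervals show how large a change in measured intensity these data still allow. The 95% interval of a gene's change had a median half-width of 0.281 log2 units at the high dose and 0.252 at the low dose among the 61 genes above background. At the high dose, the interval of 58 of the 64 genes lay within 1.5-fold either way of the untreated level, which held for 63.6% of all probe sets, and that of 32 genes lay within 1.3-fold, which held for 20.4%. At the low dose 61 genes lay within 1.5-fold, against 74.4% of all probe sets, and 51 within 1.3-fold, against 32.6%. Between the doses the counts were 60 within 1.5-fold (60.7% of all probe sets) and 36 within 1.3-fold (18.7%). For the average of the 2 doses they were 62 (80.2%) and 55 (44.3%). These shares are over all probe sets, whose median SD was 0.182, against 0.126 for the 288 other bright ones. The shares among those bright probe sets were not counted. A change in measured intensity above 1.5-fold thus lay outside the interval of nearly every gene, while smaller changes could not be resolved for many. At bright probe sets a measured difference can be smaller than that in RNA, so these intervals set no limit on RNA changes. The counts also include the 3 genes close to background, whose changes have no exact size.

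**Figure D2:**
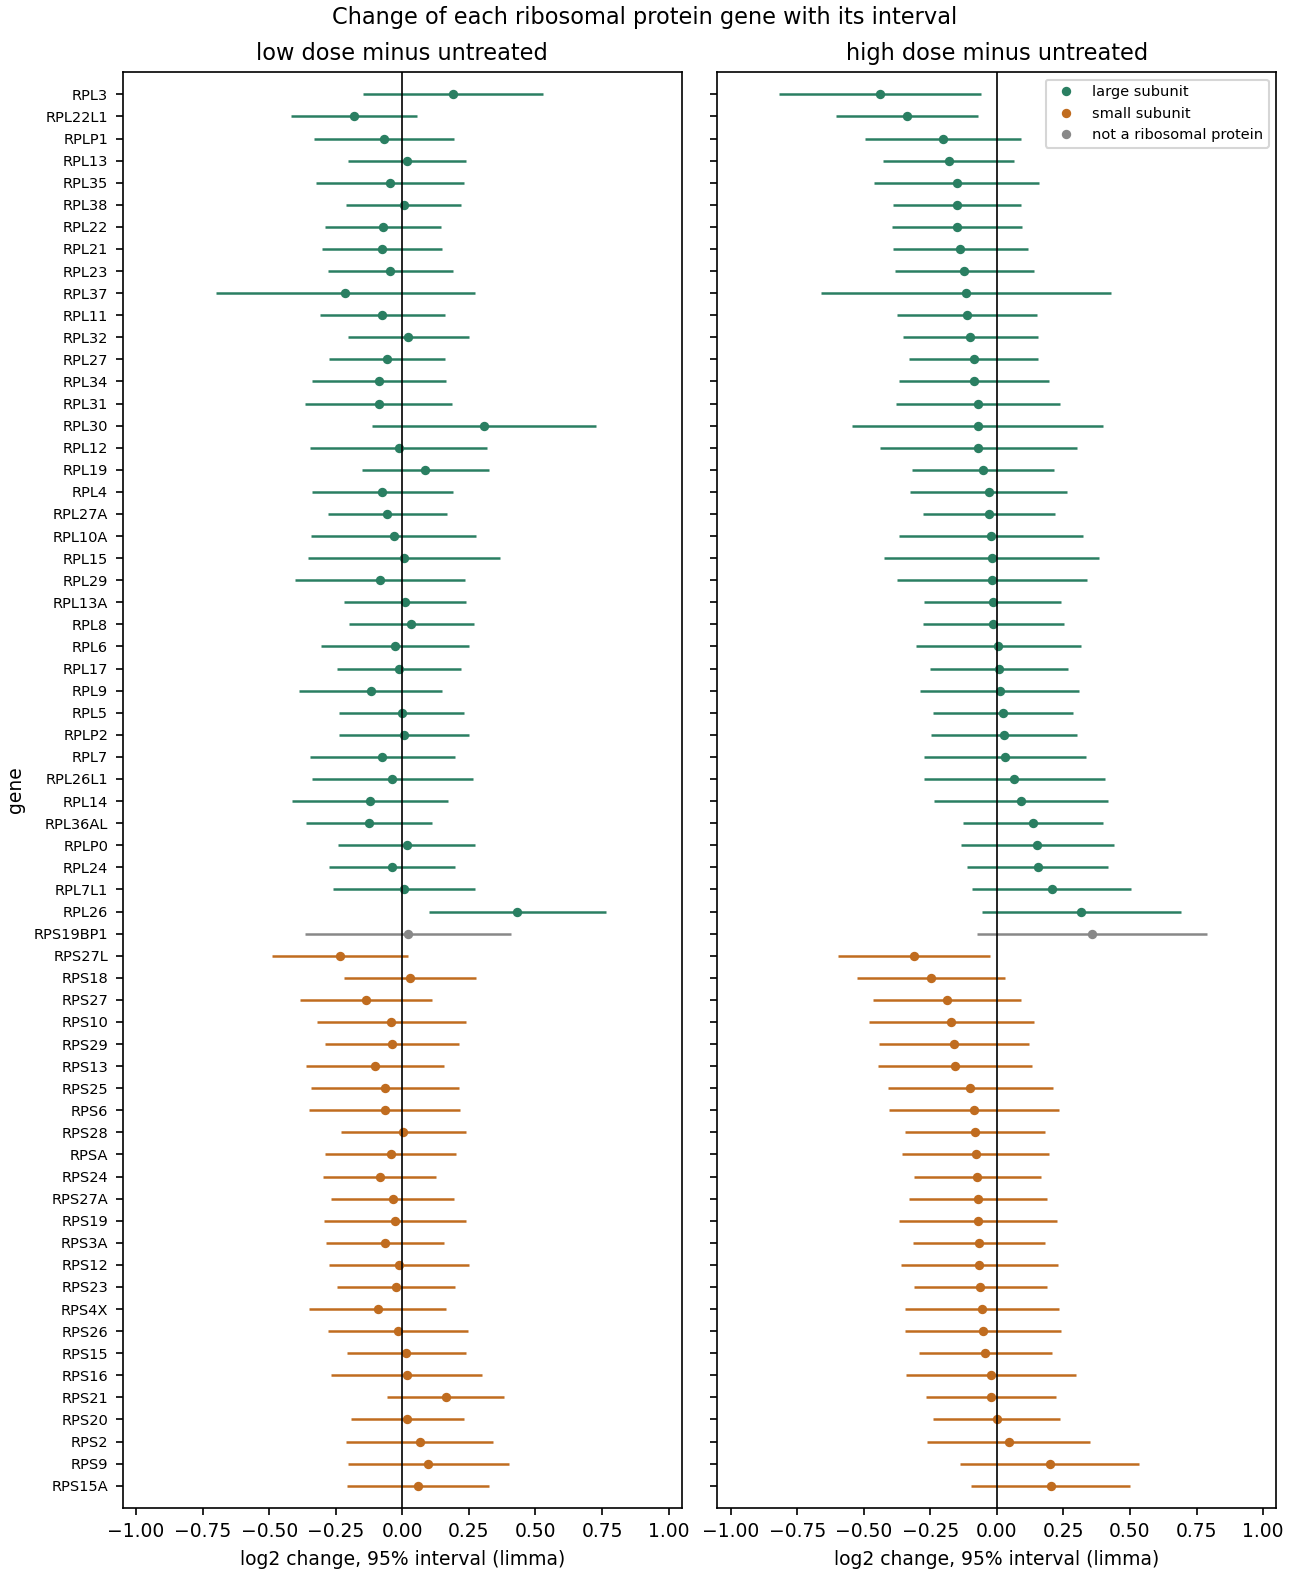
Each row is a ribosomal protein gene, with the log2 change (point) and its 95% limma interval (line) for low dose minus untreated on the left and high dose minus untreated on the right; colours give the subunit. At the high dose RPL3, RPL22L1 and RPS27L have intervals that lie below 0, at −0.44, −0.34 and −0.31.

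At the high dose, 3 of the 64 genes were below untreated at an unadjusted p under 0.05, RPL3, RPL22L1 and RPS27L, and none was above. Among all probe sets 7.97% reached that p in either direction, 4.36% on the lower and 3.61% on the higher side, so 3 of 64, or 4.69%, is close to the background and is not a result about the family. The 3 are described because they had the smallest p of the family, and none passed after adjustment.

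RPL3, a large-subunit protein that reaches towards the peptidyl transferase centre, was at 10.56 and 10.68 on the high-dose arrays. It was at 11.12, 11.18 and 10.87 on the untreated arrays. Both high-dose animals lay below all untreated animals, and the means were 10.62 ± 0.0816 (SD, n = 2) at the high dose and 11.06 ± 0.164 (SD, n = 3) in untreated animals. The difference was −0.44, with a 95% interval of −0.82 to −0.06 and a limma adjusted p of 0.549. The gene rests on 1 probe set, and its paralog RPL3L, which replaces it in mature muscle ribosomes in mice, was not analysed here.

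RPL22L1, a paralog of the large-subunit protein RPL22, was at 9.99 and 9.95 on the high-dose arrays, against 10.34, 10.37 and 10.20 on the untreated arrays. The groups did not overlap. The difference was −0.34, with a 95% interval of −0.60 to −0.07 and a limma adjusted p of 0.511, the smallest of the family in this comparison. RPL22 itself was at 13.38 and 13.25 on the high-dose arrays, against 13.48, 13.45 and 13.45 on the untreated arrays, a difference of −0.15.

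RPS27L, a paralog of the small-subunit protein RPS27 that is induced by p53 in human cells, was at 10.70 and 10.52 on the high-dose arrays and at 10.997, 10.81 and 10.95 on the untreated arrays. Again both treated animals lay below every untreated one. The difference was −0.31, with a 95% interval of −0.60 to −0.03 and a limma adjusted p of 0.581. The name of its probe set marks probes shared by several transcripts, so signal from RPS27 cannot be told apart from that of RPS27L. RPS27 was at 13.24 and 13.08 at the high dose, against 13.42, 13.38 and 13.24 in untreated animals, a difference of −0.19, and these groups overlapped.

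**Figure D3:**
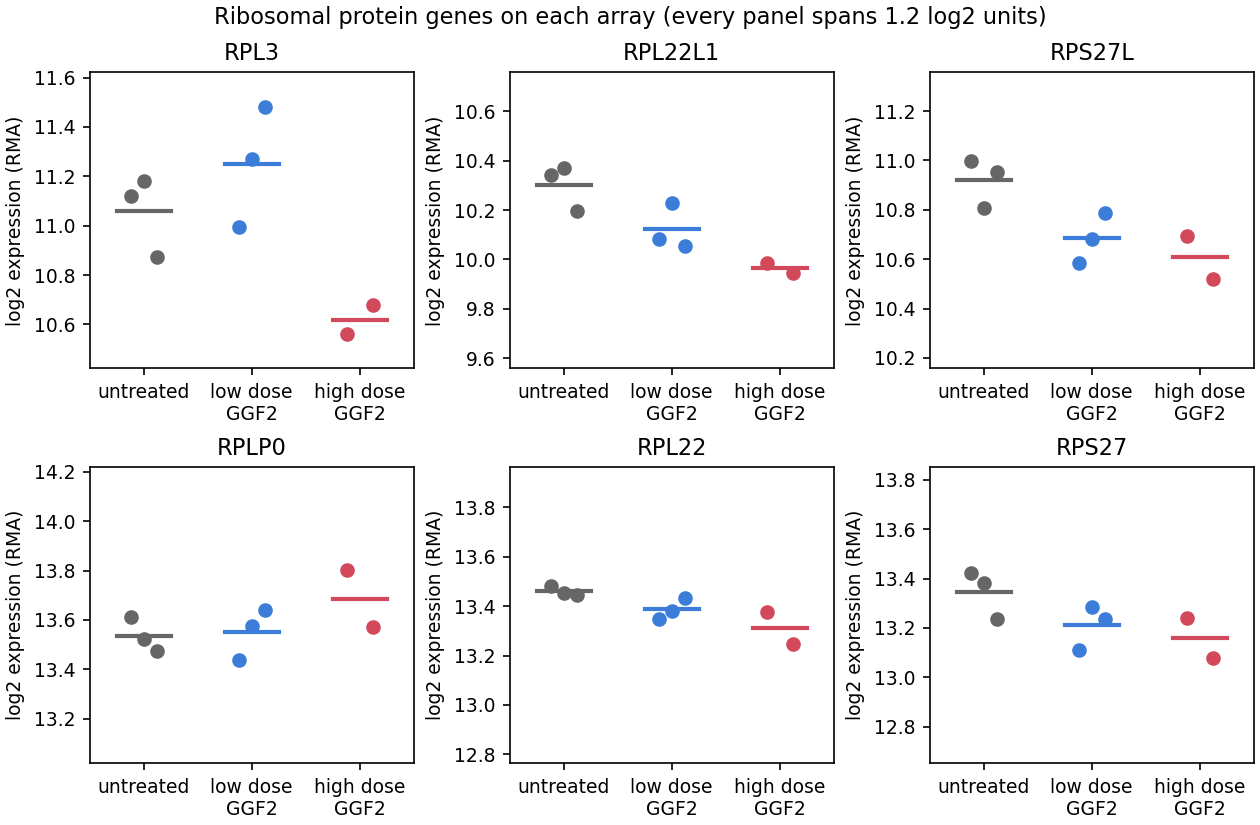
Log2 expression (RMA, y axis) of RPL3, RPL22L1, RPS27L, RPLP0, RPL22 and RPS27 on each array, by group; points are animals, bars are group means, and every panel spans 1.2 log2 units. RPL3 is lowest in the 2 high-dose animals (10.56 and 10.68), while RPLP0 has its highest value there (13.80).

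The family as a whole leaned slightly below untreated at the high dose, and this lean rested on 1 animal. The median change of the 64 genes was −0.065, against 0.015 over all probe sets and 0.006 over the 288 other bright probe sets. In all, 47 genes were below 0, where 46.7% of all probe sets were, and the 47 were 25 of the 38 large-subunit and 22 of the 25 small-subunit genes. Without high-dose replicate 2 the median was 0.013 and 28 of 64 genes were below 0, and without high-dose replicate 1 it was −0.12 with 53 below 0. Quantile normalization ties the arrays' distributions, so a lean of this size is relative to the other genes of the array.

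A total of 24 genes did not overlap between high dose and untreated, against 26.6% of all probe sets. On the lower side there were 17 genes, or 26.6% of the 64, against 12% of all probe sets. They were RPL3, RPL13, RPL21, RPL22, RPL22L1, RPL23, RPL35, RPL38 and RPLP1 of the large subunit and RPS3A, RPS10, RPS13, RPS18, RPS23, RPS24, RPS27A and RPS27L of the small subunit. On the higher side there were 7 genes against 14.7% of all probe sets, and 5 of them were RPL14, RPL24, RPL36AL, RPL7L1 and RPS19BP1, with RPL26 and RPS15A, which lay close to background, as the others. Since these 17 genes share the 2 high-dose animals, their count is not 17 separate observations.

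The shared movement of the family, seen array by array, was mostly that of 2 arrays. For each of the 61 genes above background, the value on each array was set against that gene's own mean over the 8 arrays. The mean of these differences was 0.068, 0.009 and 0.004 on the untreated arrays, −0.125, 0.042 and 0.060 on the low-dose arrays and 0.026 and −0.085 on the high-dose arrays. Low-dose replicate 1 and high-dose replicate 2 thus stood below the others in their own groups. Of the 61 genes, 30 had their lowest value on low-dose replicate 1 and 23 on high-dose replicate 2, so 53 of 61 were lowest on these 2 arrays. The spread within the high-dose group and within the low-dose group was thus larger than the difference of either group's mean from untreated. The group means of this measure were 0.027 ± 0.036 for the 3 untreated animals, −0.008 ± 0.10 for the 3 low-dose animals and −0.030 ± 0.079 for the 2 high-dose animals (± SD). The median correlation between pairs of these genes was 0.451 over 8 arrays, against 0.0903 among the other bright probe sets. Without low-dose replicate 1 and high-dose replicate 2, left out because of their low values, the 2 medians were 0.0875 and 0.0618. Since these arrays were picked for the shared low values, a lower correlation without them was built in and is not separate evidence.

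**Figure D4:**
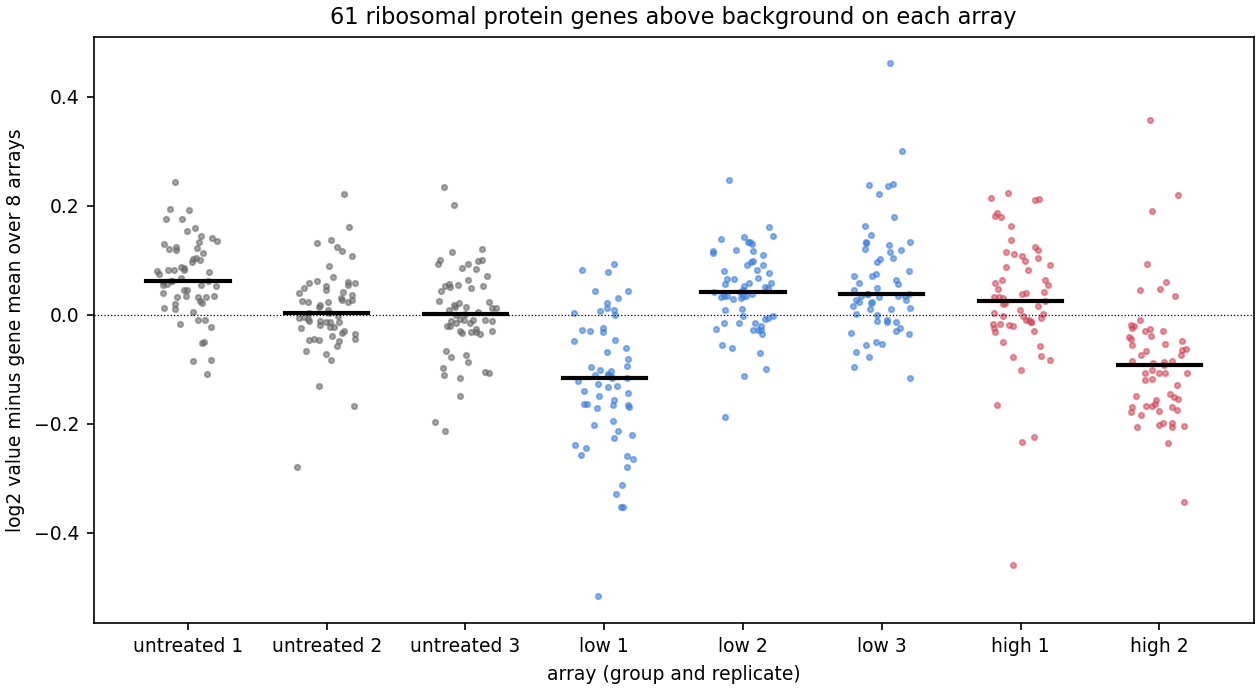
Each point is 1 of 61 ribosomal protein genes above background, as its log2 value minus its own mean of 8 arrays (y axis), on each array (x axis, coloured by group); bars mark the medians. Low-dose replicate 1 and high-dose replicate 2 lie below 0 as a whole, with means of −0.125 and −0.085.

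Of 3 measures of RNA quality, 2 were widest on 1 of these arrays. The 3' minus 5' gap of the actin control probe sets, which grows as RNA is shorter, was 6.04, 5.70 and 5.48 log2 units on the low-dose arrays, against 5.02, 4.88 and 5.26 on the untreated arrays. This gap was wider on every low-dose array than on any untreated array, so it cannot be told apart from the low dose. The actin gap was widest on low-dose replicate 1. The elongation factor 1 alpha control gap was also widest there, at 3.69 against 2.69 to 3.19 on the untreated arrays. The GAPDH gap on that array, 1.62, lay within the untreated range of 1.09 to 1.65. The high-dose arrays had actin gaps of 5.18 and 4.92, the second on replicate 2, within the untreated range. The other bright probe sets had means of −0.061 on low-dose replicate 1 and 0.004 on high-dose replicate 2. The part of RNA quality in these values was not tested.

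The array holds 5 control probe sets for ribosomal RNA. The brighter 28S probe set was at 14.67, 14.55 and 14.67 on the untreated arrays, 14.64, 14.62 and 14.76 on the low-dose arrays and 14.60 and 14.69 on the high-dose arrays. The bright 18S probe set was at 13.89, 13.63 and 13.78 on the untreated arrays, 13.56, 13.62 and 13.76 on the low-dose arrays and 13.63 and 13.73 on the high-dose arrays. A second 28S probe set had group means of 14.36 untreated, 14.38 with the low dose and 14.39 with the high dose. The dim ones differed more: the second 18S probe set averaged 5.60 ± 0.295 untreated, 6.01 ± 0.235 with the low dose and 5.71 ± 0.127 with the high dose, and the 5S probe set 5.51 ± 0.538, 5.18 ± 0.48 and 5.06 ± 0.262 in the same order (± SD). Both dose groups overlapped with untreated in all 5. The bright probe sets lie near the top of the scale, and the deposited labelling started from total RNA, so the controls give no amount of ribosomes per cell.

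At the low dose no gene passed and the family stayed near untreated. The median change was −0.034, against 0.008 over all probe sets, and 41 of the 64 genes were below 0 where 48% of all probe sets were. Without low-dose replicate 1 the median was 0.020 and 22 genes were below 0. With each array centred on its median, the low-dose median was −0.058 with 54 of 64 genes below 0, and the high-dose median −0.047 with 44 below 0. With quantile normalization renewed, the low-dose median was −0.0115 and the high-dose median −0.0673. The order of the 2 doses in this lean thus differed between scalings. By the brightest probe sets, only RPL26 reached an unadjusted p under 0.05, on the higher side, with a limma adjusted p of 0.998. Among all probe sets 4.5% reached that unadjusted p in either direction, 2.77% higher and 1.74% lower. RPL26, of the large subunit, was at 4.23, 3.75 and 3.73 on the low-dose arrays and at 3.54, 3.41 and 3.47 on the untreated arrays, with only low-dose replicate 1 clearly above the background threshold of 3.774. The untreated level was below that threshold, so the difference of 0.43 has no exact size. In total 5 genes did not overlap between low dose and untreated, against 9.1% of all probe sets: RPL26 and RPS21 were above (5.23% of all probe sets), and RPL22, RPS24 and RPS27L below (3.87%).

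RPS27L and RPL22L1 lay below untreated at the low dose too. RPS27L was at 10.58, 10.68 and 10.79 on the low-dose arrays, all below the lowest untreated value of 10.81, and the difference was −0.23. RPL22L1 was at 10.08, 10.23 and 10.06 on the low-dose arrays, a difference of −0.18 with overlapping groups. For the average of the 2 doses set against untreated, RPS27L was at −0.27 and RPL22L1 at −0.26, with a limma adjusted p of 0.956 for both. The average and the single doses share the untreated animals, so they are not separate evidence. In it 3 genes reached an unadjusted p under 0.05, RPL26 above and RPL22L1 and RPS27L below, against 4.83% of all probe sets, 2.43% above and 2.41% below. All 5 treated animals lay apart from all 3 untreated ones for 4 genes, against 2.75% of all probe sets. These were RPL26 above (1.61%) and RPL22, RPS24 and RPS27L below (1.13%). RPL3 differed from these, as it was above untreated at the low dose, by 0.19, and below it at the high dose.

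By the brightest probe sets, high dose set against low dose gave the widest difference of the family, in RPL3. RPL3 was at 10.56 and 10.68 on the high-dose arrays, against 10.996, 11.27 and 11.48 on the low-dose arrays. The groups did not overlap and the difference was −0.63, with a limma adjusted p of 0.285. By its brightest probe set, no other ribosomal protein gene reached an unadjusted p under 0.05 there. Among all probe sets 10.2% did, 4.38% higher and 5.85% lower. Some dimmer probe sets differed more. That of RPS27A was at −0.85 with groups that did not overlap, an unadjusted limma p of 0.026 and an adjusted p of 0.418. That of RPL38 was at −0.73 with overlapping groups. In all, 10 genes did not overlap between the doses, against 26.2% of all probe sets: RPL14, RPL24 and RPL36AL were above at the high dose (13.2%), and RPL3, RPL13, RPL22L1, RPL32, RPL38, RPS18 and RPS21 were below (13%). The median change was −0.034, with 40 of 64 genes below 0, where 48.9% of all probe sets were. These were 19 of the 38 large-subunit and 21 of the 25 small-subunit genes. Arrays centred on their medians gave 0.008 for that median, with 26 of 64 genes below 0. Quantile normalization renewed gave −0.056, with 48 of 64 below 0, so its sign depends on the scaling.

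The stalk proteins, which recruit elongation factors to the large subunit, did not move together. RPLP0, the base of the stalk, was at 13.80 and 13.57 on the high-dose arrays, against 13.61, 13.52 and 13.47 on the untreated arrays, a difference of 0.15 with overlapping groups. RPLP1 was at 12.99 and 12.89 at the high dose, below all 3 untreated values of 13.26, 13.09 and 13.08, a difference of −0.20. RPLP2 differed by 0.03. By their brightest probe sets, the 3 differed by 0.02, −0.07 and 0.01 at the low dose, in the order RPLP0, RPLP1 and RPLP2. None passed at either dose. A dimmer RPLP0 probe set stood 0.39 above untreated in the low-dose animals, with groups that did not overlap. Its unadjusted limma p was 0.037 and its adjusted p 0.998. Its high-dose difference was 0.10, with overlapping groups. For RPLP1 a dimmer probe set gave 0.10 (low dose) and 0.04 (high dose), both with overlapping groups.

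Members with a second known role also differed little from untreated by their brightest probe sets. RPS6, the substrate of S6 kinase downstream of mTOR, differed by −0.09 at the high dose and −0.07 at the low dose. RPL5 and RPL11, which with 5S ribosomal RNA bind MDM2 when ribosome assembly fails in human and mouse cells, differed by 0.02 and −0.11 at the high dose and by 0.00 and −0.07 at the low dose. RPSA, also described as a laminin receptor, differed by −0.08 and −0.04. RPS27A, made as a fusion with ubiquitin, differed by −0.07 and −0.04, and the X-linked RPS4X by −0.06 and −0.09. By its brightest probe set, each of these had a 95% interval that included 0 at both doses, which does not show that none changed. Both high-dose values of RPS27A lay below all untreated ones. Dimmer probe sets were at −0.09 at the high dose and 0.24 at the low dose for RPS6, and at −0.57 and 0.28 for RPS27A.

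The paralogs did not share a direction at the high dose. RPL7L1, a nucleolar relative of RPL7, was at 9.35 and 9.23 at the high dose, above the untreated values of 9.12, 9.09 and 9.04, a difference of 0.21 against 0.03 for RPL7. RPL36AL, which is nearly identical to RPL36A, was at 11.87 and 11.95 at the high dose, above 11.79, 11.71 and 11.81 in untreated animals, and differed by 0.14 at the high dose and −0.13 at the low dose. RPL26L1 differed by 0.07 and −0.04. RPS19BP1 was at 8.52 and 8.71 at the high dose, above 8.25, 8.08 and 8.45 in untreated animals, a difference of 0.36 with a limma adjusted p of 0.70. Processed pseudogenes and near-identical copies are common in this family, and short probes can pool their signal.

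Other probe sets of the same genes did not always follow the brightest. Of the 64 genes, 40 had 1 probe set and 24 had more, with 32 further probe sets, of which 5 were close to background. RPL23 was at −0.12 at the high dose by its brightest probe set and at −0.57 and −0.10 by its 2 dimmer ones. RPS27A was at −0.07 by its brightest and at −0.57 by a dimmer one, which at the low dose was at 0.28. RPS27 was at −0.19 by its brightest and at 0.61 by a dimmer one, so here the sign differed between probe sets. RPS18 agreed in sign across its 3 probe sets at the high dose, at −0.25, −0.21 and −0.14. No dimmer probe set passed at either dose.

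The rest of the protein synthesis machinery also gave no gene that passed, in any of 5 lists of genes. Partner proteins, which comprise ribosome-associated factors and FAU, whose product is processed to a small-subunit protein, had 6 of 7 listed genes measured and a median change of 0.013 at the high dose and −0.028 at the low dose. FAU itself differed by −0.12 at the high dose and RACK1, a scaffold on the small subunit, by −0.10 at the low dose. Dimmer FAU probe sets were at −0.07, 0.01, 0.25 and −0.09 at the high dose. A dimmer RACK1 probe set was at 0.01 at the low dose. Translation initiation had 32 of 44 genes measured, with a median of 0.071 at the high dose and −0.047 at the low dose. Elongation and termination had 6 of 15 measured, with medians of −0.106 and 0.008, and the 2 genes with the smallest p there were elongation factors. EEF1B2, an exchange factor of the elongation factor, was at 13.05 and 13.08 on the high-dose arrays, against 13.29, 13.35 and 13.37 on the untreated arrays, a difference of −0.27 with a limma adjusted p of 0.595. EEF1A1, which delivers aminoacyl-tRNA, was at 8.37 and 8.27 at the high dose, against 8.71, 8.57 and 8.85 in untreated animals, a difference of −0.39 with a limma adjusted p of 0.511. EEF1A1 differed by −0.04 and 0.04 by its other probe sets.

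No ribosome assembly factor passed. Of 76 listed, 58 were measured, with a median of 0.086 at the high dose and 0.032 at the low dose. At the high dose 42 of the 58 were above 0 and 16 below, where 46.7% of all probe sets were below 0. UTP15, a component of the small-subunit processome, was at 6.34 and 5.94 on the high-dose arrays, against 4.89, 5.26 and 5.03 on the untreated arrays, a difference of 1.09 with a limma adjusted p of 0.224. MPHOSPH10, another processome component, differed by −0.54. At the low dose the smallest p values of the list belonged to POLR1A, the largest subunit of RNA polymerase I, at 0.36 and to DKC1, which modifies ribosomal RNA, at 0.39. A second DKC1 probe set was at 0.07. Whether the assembly factors and ribosomal proteins differ was not tested.

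Growth signalling genes had 10 of 21 listed measured. MYC, a transcription factor that drives ribosome production, was at 9.77 and 9.10 on the high-dose arrays, against 6.31, 8.75 and 6.38 on the untreated arrays. The high-dose animals lay above all untreated ones, but untreated replicate 2 was close, and the difference of 2.29 had a standard error of 0.77 and a limma adjusted p of 0.4997. On the low-dose arrays MYC was at 8.44, 6.79 and 8.45, a difference of 0.74 from untreated. The ribosomal protein genes on the same arrays lay within −0.44 to 0.36 of untreated at the high dose.

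**Figure D5:**
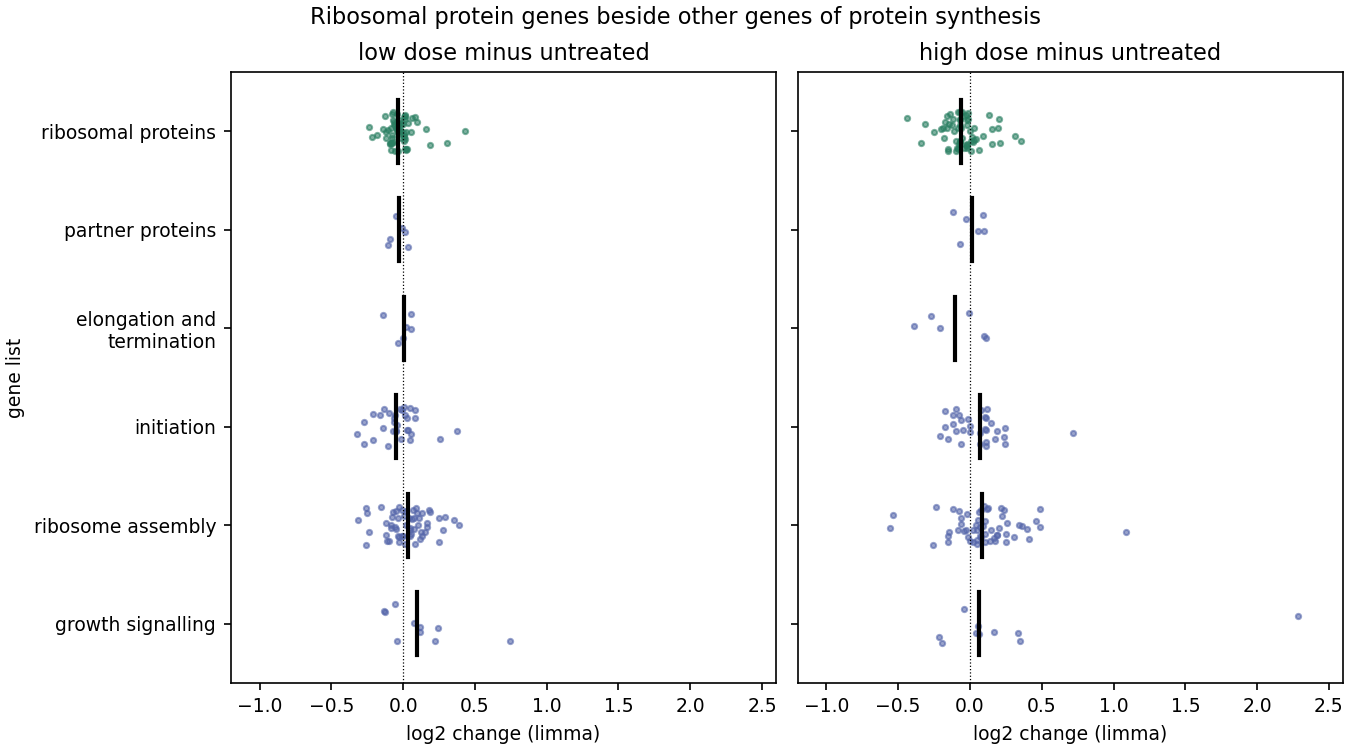
Log2 change (x axis, limma) of each gene of the ribosomal protein family and of 5 lists of protein synthesis genes (rows), for low dose minus untreated on the left and high dose minus untreated on the right; points are genes and bars are list medians. The ribosomal proteins lie between −0.44 and 0.36 at the high dose, with a median of −0.065, while MYC stands apart at 2.29.

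No marker of another cell type passed an adjusted p under 0.05 in limma at either dose, but the summed levels of several lists separated between high dose and untreated. Separation is frequent with so few animals: 26.6% of all probe sets separated from untreated at the high dose and 9.1% at the low dose. A sum also follows the brightest markers of its list. In bulk tissue, fewer cells of a type and less RNA per cell cannot be told apart. Of the 9 fibroblast markers listed, 7 were measured, 5 were below 0 at the high dose, where 46.7% of all probe sets were, and the log2 of their summed level ranged from 12.79 to 13.23 at the high dose, against 13.51 to 14.08 in untreated animals. Of the 11 macrophage markers listed, 8 were measured, 7 were below 0, and the summed level ranged from 9.40 to 9.53 at the high dose, against 9.95 to 10.51 in untreated animals. None of these markers was close to background. The sum of 3 adipocyte markers of 5 listed, with ADIPOQ close to background, ranged from 10.73 to 10.99 at the high dose, against 11.16 to 11.69 in untreated animals. All 3 were below 0, but the brightest had a mean of 11.18, so this sum is largely that of 1 gene. The sum of 8 endothelial markers of 8 listed, with KDR close to background, ranged from 10.51 to 10.91, against 10.97 to 11.16. Its markers were mixed, with 5 below 0 and 3 above. The sum of 3 Schwann cell and nerve markers of 5 listed ranged from 7.13 to 7.23, against 7.30 to 7.55, with 2 markers below 0 and 1 above. The lymphocyte, smooth muscle and erythrocyte sums overlapped between high dose and untreated. The cardiomyocyte sum ranged from 17.81 to 17.83 at the high dose and from 17.73 to 17.82 in untreated animals. The sum of 4 epicardial and mesothelial markers of 6 listed ranged from 7.79 to 8.57 at the low dose, against 6.49 to 6.81 in untreated animals. At the high dose it ranged from 6.81 to 7.3. The part of cell composition in the ribosomal protein values was not tested.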

How the data were processed

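Left ventricular RNA of 8 pigs was measured on Affymetrix porcine arrays. The authors deposited log2 expression values, made with RMA and Partek 6.6 per the submitters' processing notes (no further setting is stated in the sources used here). RMA's quantile normalization removes a shift shared by most genes. Groups were taken from the labels' treatment. Replicate numbers follow accession order and pair nothing.

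Of the probe sets, 124 controls were left out and 23999 tested. Symbols came from the platform annotation: 10069 probe sets had 1 symbol and 198 several; 8 of the latter named a ribosomal protein among others and were left out. No genome was used, so no sequence or coordinate is given. A model with 1 mean per group was fitted to all 8 arrays with limma 3.58.1 (R 4.3.3), giving 5 residual and 3.50 prior degrees of freedom, with Benjamini-Hochberg adjustment over all probe sets and 0.05 as threshold. The fit was tested on simulated data.

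The ribosomal protein genes and the other gene lists were chosen with earlier results of these data known. Named ribosomal protein genes were those with an unadjusted p under 0.05 and separated groups, those close to background, the 3 widest and 3 smallest SDs, and a list of stalk, reference, paralog and multifunctional members; named genes of other lists had the smallest p. Genes counted as separated between groups are also named. Alternatives covered the variance prior, normalization, dim probe sets, array weights, the fit's samples, probe sets per gene, members, and each array left out.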

Additional observations from a re-analysis of the deposited data

How the results depend on the processing

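The count of ribosomal protein genes with a limma adjusted p under 0.05 was 0 in all 4 comparisons under every alternative run, 19 for each comparison between 2 groups and 18 for the mean of both doses. The median change at the high dose against untreated depended on 1 animal, at 0.0128 without high-dose replicate 2, and ranged from −0.1159 to 0.0128 when each array was left out in turn. Leaving out each array gave −0.0653 to 0.02 at the low dose against untreated, −0.0856 to 0.0265 for high dose against low dose and −0.0815 to −0.0124 for the mean of both doses. The low-dose median was 0.0066 when all probe sets of a gene were averaged, but −0.0578 with arrays centred on their medians. It was 0.0179 without untreated replicate 2 and low-dose replicate 1, whose animal numbers are neighbours. The 2 high-dose animals also have neighbouring numbers, as do untreated replicates 1 and 3. The labels do not say what the numbers mean, so anything tied to them cannot be told apart from the high dose. The count at an unadjusted p under 0.05 at the high dose was 3 and ranged from 0, without untreated replicate 1 or without high-dose replicate 2, to 4; it was 1 without untreated replicate 2, without high-dose replicate 1, or without the paralogs and RPS19BP1. For high dose against low dose the count at an unadjusted p under 0.05 was 1. It was 3 when all probe sets of a gene were averaged, and also with quantile normalization renewed. RPL3 ranged from −0.53 to −0.38 at the high dose, RPL22L1 from −0.39 to −0.28 and RPS27L from −0.40 to −0.22. Their values relative to the mean of the family on each array, an alternative chosen after seeing the data, were −0.38 for RPL3, −0.28 for RPL22L1 and −0.26 for RPS27L. With 1 high-dose array left out, the remaining one is assumed to vary like the other groups. No paired analysis was possible because the labels hold no replicate numbers shared between groups.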
